A study of Gorilla gorilla gorilla with 13 samples.

Results

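SLCO5A1, ST18, CACNA2D1 and CFAP298 are 4 of the 18137 genes in a count table of sorted gorilla organoid cells, selected on their higher levels in basal than in apical radial glia. They are 4 of the 5 genes that passed the test in that direction; the fifth, the olfactory receptor gene OR10Q1, was very low and is not among them. The values on which they were selected are given below as a description, without a test. All 4 passed the filter on low counts, in which 16804 genes were kept. What the choice did not use is their level in the intermediate progenitors and neurons, and on those levels the 4 genes parted: SLCO5A1 and CFAP298 were highest in basal radial glia, CACNA2D1 in basal intermediate progenitors and ST18 in neurons.

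The cells came from cerebral organoids, 3-dimensional cultures of brain tissue, grown from 1 gorilla induced pluripotent stem cell line (GC1) and taken at week 8 of culture, give or take 3 days. Flow sorting of the dissociated organoids gave 4 libraries of apical radial glia (aRG), 4 of basal radial glia (bRG), 3 of basal intermediate progenitors (bIP) and 2 of neurons sorted as positive for BCL11B (N). All groups share the line and the culture protocol, and the labels name no treatment or edit. Nor do they tie libraries to separate cultures, and the p-values below measure no more than how libraries of a population vary, possibly for technical reasons. Each library was made by Smart-seq2 from RNA of 10000 cells.

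Apical radial glia are the stem cells that line the ventricle of the developing cortex, and basal radial glia are stem cells that have left it and are prominent in primates with a large neocortex. Both can give rise to intermediate progenitors, which divide into neurons. The 4 genes have unrelated functions. SLCO5A1 encodes a member of the organic anion transporter family whose substrates are poorly known. ST18, also called MYT3, encodes a zinc finger transcription factor, a relative of the neuronal factors MYT1 and MYT1L. CACNA2D1 encodes the alpha2delta-1 subunit, which brings voltage-gated calcium channels to the cell surface and is the receptor of the drugs gabapentin and pregabalin. CFAP298, formerly C21orf59, encodes a protein needed to assemble the dynein arms of motile cilia.

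Total counts per library were 5464721 to 12524938 in the table counted on the human build hg38, which was the main one, and 11835004 to 26173260 in the second, counted on the gorilla build gorGor6. bRG library 3 stood apart: MALAT1, a nuclear noncoding RNA, took 21.3% of its gorGor6 counts and at most 10.8% of those of the other 12 libraries. Levels are given as counts scaled to 1000000 per library after TMM normalization (CPM). Marker levels bore out part of the labels. The summed level of 7 radial glia markers was 2368 to 3170 CPM in aRG and 1812 to 3375 in bRG, against at most 110 in bIP and 102 in N. That of 6 basal radial glia markers overlapped between bRG (1193 to 2127 CPM) and aRG (1693 to 2272), so they did not set the libraries labelled bRG apart. HOPX averaged 65.7 ± 29.1 CPM in bRG and 150 ± 67.4 in aRG, and MOXD1 67.5 ± 6.93 and 110 ± 41.0. Only TNC of the 6 had the higher mean in bRG, at 91.0 ± 23.5 CPM against 86.7 ± 16.9. The 8 markers of intermediate progenitors summed to 832 to 1062 CPM in bRG, 376 to 610 in aRG and 232 to 512 in bIP, so the libraries labelled bIP did not carry the highest levels of them, and they moved with the members between aRG and bRG. Their part in that difference was not tested. Choroid plexus markers summed to 1592 to 7740 CPM in aRG and to 206 to 1236 in bRG, a move opposite to that of the members. TTR made up most of the sum, at 4512 ± 2535 CPM in aRG and 628 ± 423 in bRG. KCNJ13 was level, at 32.1 ± 13.1 and 30.4 ± 4.02, and the other markers of that list had lower means in bRG. Mesenchyme markers moved in that direction too, with sums of 98.8 to 311 CPM in aRG and 49.0 to 78.6 in bRG. In bulk libraries such as these, fewer cells that express a gene and less RNA of it per cell cannot be told apart.

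**Figure D1:**
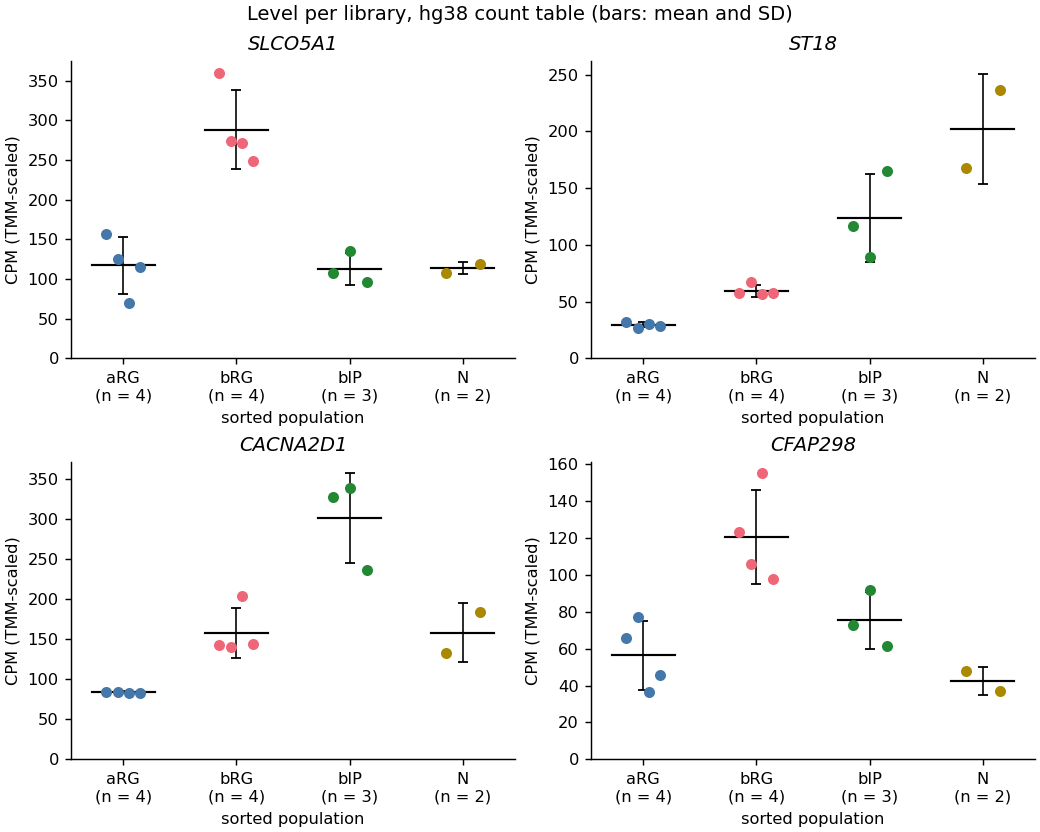
The level of each gene in every library of the hg38 table, in CPM after TMM scaling, by sorted population; points are libraries, the horizontal bar is the mean and the whisker the SD. SLCO5A1 and CFAP298 peak in bRG at means of 288 and 120 CPM, CACNA2D1 in bIP at 301 and ST18 in N at 202.

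SLCO5A1 had a single high population, bRG. It measured 360, 274, 271 and 248 CPM in bRG libraries 1 to 4, and 157, 125, 70.3 and 115 CPM in aRG libraries 1 to 4. Every bRG library lay above every aRG library. The 3 bIP libraries measured 108, 135 and 95.8 CPM, neuron library 1 108, and the neuron library without a matching number 119. These values lie within the aRG range. The means were 288 ± 49.3 CPM in bRG (SD, n = 4), 117 ± 35.8 in aRG (n = 4), 113 ± 20.3 in bIP (n = 3) and 113 ± 7.58 in N (n = 2), and aRG, bIP and N did not differ beyond their spread. The ranges of bRG and bIP did not overlap in that direction in 12.3% of all genes tested, and those of bRG and N in 16.5%. The log2 fold change was 1.30 (SE 0.242) from aRG to bRG, -1.35 (SE 0.267) from bRG to bIP and -1.35 (SE 0.31) from bRG to N, and between aRG and bIP it was -0.05 (SE 0.258).

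CFAP298 had the second pattern of this kind. It measured 123, 106, 155 and 97.7 CPM in bRG libraries 1 to 4, and 65.6, 77.2, 36.6 and 45.8 CPM in aRG libraries 1 to 4. The bIP libraries measured 72.6, 91.8 and 61.4 CPM. The neuron libraries held 47.7 and 37.0 CPM, the second being the unnumbered one. All bRG libraries were above all other libraries, bIP overlapped with aRG, and aRG overlapped with N, while bIP lay above N. The means were 120 ± 25.4 CPM in bRG, 75.3 ± 15.4 in bIP, 56.3 ± 18.5 in aRG and 42.4 ± 7.52 in N. From aRG to bRG the log2 fold change was 1.10 (SE 0.261), and it was -0.68 (SE 0.283) from bRG to bIP. The difference between bRG and aRG measured 0.76 (SE 0.232) in the libraries numbered 1 and 2 and 1.60 (SE 0.395) in those numbered 3 and 4. Whether these 2 values differ was not tested. bRG library 3, the one rich in MALAT1, held the highest level, and without it the log2 fold change was 0.95 (SE 0.252).

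ST18 was raised in bRG as 1 step of a longer climb. In aRG libraries 1 to 4 it measured 31.6, 26.8, 30.5 and 28.6 CPM, and in bRG libraries 1 to 4 57.2, 67.3, 56.2 and 57.3 CPM. The bIP libraries measured 116, 89.3 and 165 CPM and the neuron libraries 167 and 236. No population overlapped with another, though the highest bIP library (165.1 CPM) and the lower neuron library (167.4) nearly met. The bIP libraries of 15.7% of all genes lay above those of aRG, as here, and the neuron libraries of 22.4%. Above the bRG libraries lay the bIP libraries of 13.6% of genes and the neuron libraries of 19.9%. The means of ST18 were ordered from 29.4 ± 2.12 CPM in aRG through 59.5 ± 5.21 in bRG and 124 ± 38.4 in bIP to 202 ± 48.8 in N. From aRG to bRG the log2 fold change was 1.02 (SE 0.225), and from bRG to bIP it was 1.05 (SE 0.236).

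CACNA2D1 climbed in the same way up to bIP and was lower again in neurons. The aRG libraries were alike, at 84.6, 84.6, 82.3 and 83.5 CPM. The bRG libraries measured 143, 140, 205 and 144 CPM, so 3 of them were as close to each other and library 3 stood above. The bIP libraries measured 328, 339 and 236 CPM, and the neuron libraries 132 and 184. All bIP libraries were above all others. Neuron library 1 lay just below those of bRG, the unnumbered one fell among them, and both lay above those of aRG. The means were 83.8 ± 1.08 CPM in aRG, 158 ± 31.2 in bRG, 301 ± 56.5 in bIP and 158 ± 36.7 in N. The log2 fold change from aRG to bRG was 0.91 (SE 0.209) and 0.76 (SE 0.186) without bRG library 3, and from bRG to bIP it was 0.93 (SE 0.222).

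The count of genes behind the choice of members was small. Of 16804 genes tested, 211 differed between bRG and aRG (1.26%), of which 5 were called higher in bRG (0.0298%) and 206 lower (1.23%), and 254 (1.51%) had all bRG libraries above all aRG libraries, as the members do. Calls here and below are adjusted p-values under 0.05 in edgeR's quasi-likelihood test with Benjamini-Hochberg adjustment over all genes tested. Just inside the threshold stood CFAP298 and OR10Q1, the latter at 4.11 ± 1.88 CPM in bRG and 0.254 ± 0.318 in aRG. Just outside it stood TCP11L2, whose means were 14.7 ± 4.96 CPM (aRG) and 36.7 ± 14.4 (bRG), and NAIP, an apoptosis inhibitor gene with near-identical copies and so an uncertain count, at 0.662 ± 0.621 and 5.56 ± 5.66 CPM.

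Levels in bIP and N were then set against radial glia, the average of the aRG and bRG coefficients with 4 libraries each. This average holds the bRG level on which the genes were selected. A gene raised in bRG therefore has a smaller rise and a larger fall against it, so rises are given with a test and lower values as a description, without one. ST18 was 2.96-fold higher in bIP, with a log2 fold change of 1.56 ± 0.199 (SE) and an edgeR adjusted p of 1.39e-05. CACNA2D1 was 2.62-fold higher (log2 fold change 1.39, SE 0.187, edgeR adjusted p = 2.51e-05). Both were above aRG and above bRG taken alone, as described. That is 2 of the 4 called higher, beside 10.4% of all genes tested, while 10.4% were called lower and 20.8% in either direction. SLCO5A1 measured a log2 fold change of -0.70 (SE 0.237) in bIP, which consists of -0.05 (SE 0.258) against aRG and -1.35 (SE 0.267) against bRG. CFAP298 measured -0.13 (SE 0.249), with 0.42 (SE 0.278) against aRG and -0.68 (SE 0.283) against bRG.

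Neurons had a higher level of ST18 than the same radial glia. ST18 was 4.83-fold higher in N (log2 fold change 2.27, SE 0.218, edgeR adjusted p = 6.68e-07). CACNA2D1 measured 0.46 (SE 0.224, edgeR adjusted p = 0.157) and was not called. Of the 13 removals of 1 library it was called in 1, without bRG library 3, at 0.54 (edgeR adjusted p = 0.0419), and not in the other 12. That library held its highest bRG level. Its log2 fold change was 0.21 without the unnumbered neuron library and 0.19 with the replicate block. In N 12.4% of genes were called higher, 10.1% lower and 22.5% in either direction. CFAP298 measured -0.96 (SE 0.31) in N, with -0.41 (SE 0.323) against aRG, whose range holds both neuron libraries, and -1.51 (SE 0.34) against bRG. SLCO5A1 measured -0.70 (SE 0.279), with -0.05 (SE 0.292) against aRG and -1.35 (SE 0.31) against bRG. The lower values of both genes thus come mostly from the bRG level that selected them. Since bIP and N were compared with the same radial glia libraries, these values are not independent.

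Between N and bIP, where no radial glia library sets the difference, no member was called by edgeR. Only 19 of the 16804 genes were (0.113%), all of them lower in N. Of the members, 3 had an unadjusted p under 0.05, as had 1115 of the 16804 genes. DESeq2 called 1 of the members and 169 genes in all. The log2 fold change of CACNA2D1 was -0.93 ± 0.274 (SE), with an edgeR adjusted p of 0.378, and it was the gene called by DESeq2 (adjusted p = 0.043). CFAP298 measured -0.83 (SE 0.342, edgeR adjusted p = 0.688) and ST18 0.71 (SE 0.28, edgeR adjusted p = 0.651). SLCO5A1 measured 0.004 (SE 0.307, edgeR adjusted p = 0.998), with neuron libraries inside the bIP range. The 3 larger differences went with libraries that did not overlap, as did 13.8% of all genes for bIP above N and 17.2% for N above bIP. With 2 neuron libraries the errors leave room for differences of either sign in SLCO5A1.

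The gorGor6 table holds counts of the same libraries and so repeats the measurement on another build rather than adding libraries. SLCO5A1 held 9029 counts in it and 18293 in the hg38 table, or 49.4%. The median of 11020 genes with at least 1000 hg38 counts was 175%, and 5.25% of those genes had a percentage as low as that of SLCO5A1 or lower. ST18 (139%), CACNA2D1 (130%) and CFAP298 (147%) were below the median as well. These are ratios of 2 separate counts of the same libraries. The ratio of SLCO5A1 ran from 28.8% in the unnumbered neuron library to 65.4% in bRG library 2. Within bRG it ran from 36.1% in library 3 to that 65.4%, so the populations overlapped. That of ST18 lay between 130% and 145% over all 13 libraries.

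**Figure D2:**
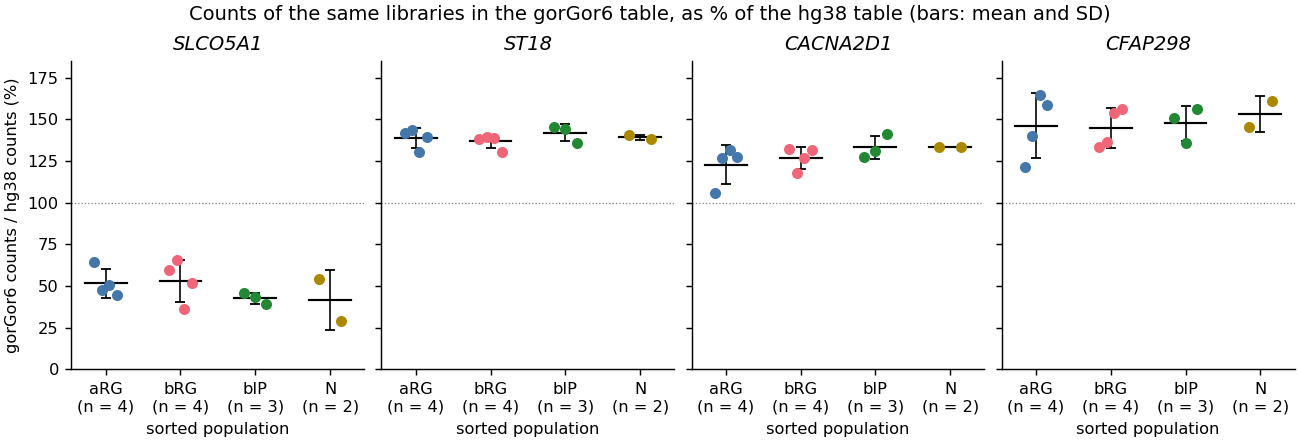
Counts of each gene in the gorGor6 table as a percentage of its counts in the hg38 table, by library and population; bars are the mean and SD, and the dotted line marks equal counts. SLCO5A1 lies at 28.8% to 65.4% and the other genes at 106% to 165%.

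The pattern over the populations was alike in both tables for ST18, CACNA2D1 and CFAP298, and SLCO5A1 kept its peak in bRG. In the gorGor6 table SLCO5A1 measured 96.0, 78.4, 47.5 and 58.2 CPM in bRG libraries 1 to 4, and 47.5, 27.7, 16.8 and 25.9 CPM in aRG libraries 1 to 4. The lowest bRG library (47.54 CPM, library 3) and the highest aRG library (47.50, library 1) almost touched, where the hg38 values had left a wide gap between the populations. Its means were 70.0 ± 21.5 CPM in bRG, 29.5 ± 12.9 in aRG, 23.6 ± 4.94 in bIP and 22.5 ± 8.59 in N. Against radial glia SLCO5A1 measured -0.94 (SE 0.332) in bIP on the log2 scale and CFAP298 -0.83 (SE 0.313) in N.

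Both rises of ST18 and the rise of CACNA2D1 in bIP were called in the gorGor6 table. ST18 measured a log2 fold change of 1.67 (SE 0.217) in bIP and 2.34 (SE 0.239) in N against radial glia, with edgeR adjusted p-values of 1.44e-05 and 6.89e-07. CACNA2D1 measured 1.54 (SE 0.215, edgeR adjusted p = 3.3e-05) in bIP. That table tested 38520 genes, of which 5.3% were called higher and 4.43% lower in bIP, and 6.13% higher and 4.89% lower in N. Between N and bIP none of the 4 was called there by edgeR, beside 0.0441% of its genes, all lower in N. An unadjusted p under 0.05 was held by 3 of the 4 and by 2256 of the 38520 genes. The median log2 fold change of all genes in N against radial glia was -0.33 there and -0.06 in the hg38 table. From aRG to bRG no gene of that table was called higher by edgeR, with 869 higher at an unadjusted p under 0.05, and 0.496% were called lower.

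**Figure D3:**
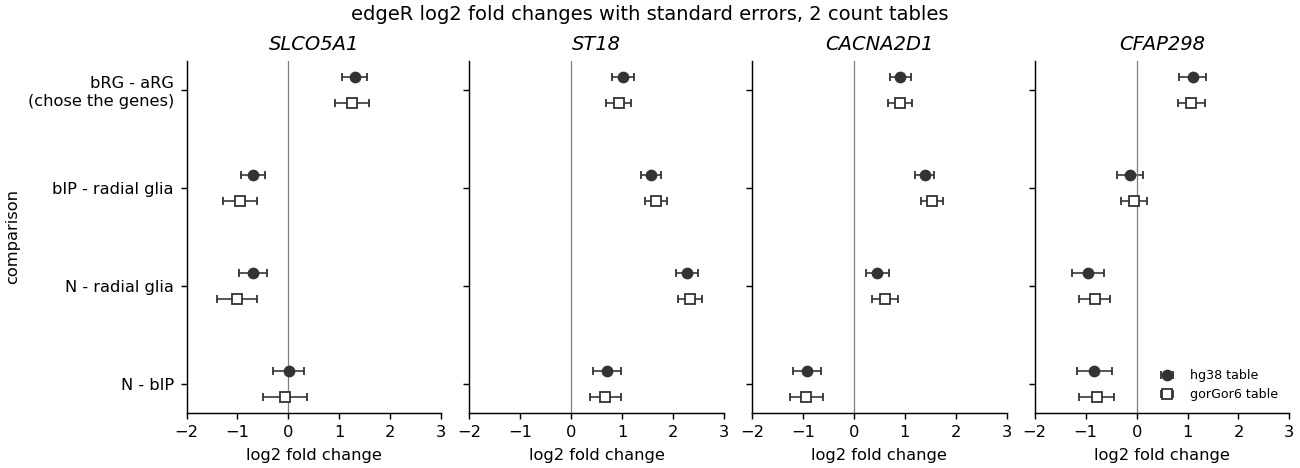
Log2 fold changes with standard errors from edgeR for each gene in 4 comparisons, filled circles for the hg38 table and open squares for the gorGor6 table; the top line of each panel is the comparison that chose the genes. The 2 tables give values of the same sign throughout except for SLCO5A1 between N and bIP, where both lie within 1 SE of 0 (0.004 and -0.07).

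The relatives of each member were read from the same fit of the hg38 table. From aRG to bRG only 5 of 16804 genes were called higher, the members and OR10Q1, so no relative could be. With 1.23% of all genes called lower, none of the 10 SLCO, 2 MYT and 16 calcium channel genes beside the members was. Of 23 genes of dynein assembly and cilia 1 was called lower, DNAAF3. The median log2 fold changes of these lists without the members were 0.15, 0.29, 0.15 and -0.18, against 0.04 over all genes. In the MYT family both relatives of ST18 rose in bIP and in N, beside 10.4% and 12.4% of all genes called higher. MYT1 measured 42.3 ± 16.0 CPM in aRG, 66.9 ± 16.1 in bRG, 97.9 ± 8.08 in bIP and 135 ± 3.55 in N, the same order as ST18. Against radial glia it rose by a log2 fold change of 0.88 in bIP and 1.34 in N (edgeR adjusted p = 0.0135 and 0.00132). MYT1L, a factor that represses non-neuronal genes in neurons, had no step between the radial glia, at 81.1 ± 48.9 CPM in aRG and 76.7 ± 24.6 in bRG, and was 3.45 higher in bIP and 3.90 in N on the log2 scale (edgeR adjusted p = 2.32e-07 and 1.61e-07).

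The summed level of neuron markers was ordered over bIP and N as ST18 was. The 6 with a row summed to 3746 to 3782 CPM in N, 2357 to 2539 in bIP and at most 601 in radial glia. SLC17A6 went the other way, at 37.4 ± 5.84 CPM in bIP and 10.97 ± 1.64 in N. BCL11B, TBR1, NEUROD6, MAPT and STMN2 had higher means in N than in bIP. The part of neurons in the level of ST18 was not tested. ST18 is also known from oligodendrocytes and from inhibitory neurons of the ventral forebrain. The 8 interneuron markers together measured 10.3 to 28.4 CPM in aRG, 15.7 to 22.2 in bRG, 17.8 to 30.7 in bIP and 5.76 to 7.09 in N. One of them, GAD1, the gene of a GABA-synthesizing enzyme, was higher in bIP (15.1 ± 3.69 CPM) than in aRG (5.18 ± 3.89) and was at 1.87 ± 0.133 in N. The others averaged 5.06 CPM or less in every population. Of them, DLX1, DLX5, LHX6 and NKX2-1 had lower means in bIP than in aRG, and GAD2, DLX2 and DLX6 slightly higher ones. The 5 oligodendrocyte lineage markers with a row measured 20.6 to 40.1 CPM in aRG, 26.1 to 34.4 in bRG, 11.5 to 25.7 in bIP and 8.30 to 9.19 in N, and OLIG2, a defining factor of that lineage, was at 0.108 ± 0.0207 CPM in N. Their part in the level of ST18 was not tested.

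Voltage-gated calcium channels consist of a pore-forming alpha1 subunit with a beta and an alpha2delta subunit. Of the 16 other subunit genes tested, 11 rose in bIP against radial glia and none fell, beside 10.4% of all genes called higher and 10.4% lower. Their median log2 fold change was 1.32, where all genes had -0.07. In N 10 rose and none fell, beside 12.4% of all genes higher and 10.1% lower (median 1.44, all genes -0.06). The pore subunit gene CACNA1E had the largest log2 fold change of the list. It rose from 39.0 ± 10.8 CPM in aRG and 33.9 ± 10.6 in bRG to 524 ± 98.9 in bIP and 883 ± 135 in N, and CACNA1A reached 432 ± 59.9 and 581 ± 191 CPM. The beta subunit genes CACNB4 (1.36 in bIP, 1.81 in N on the log2 scale) and CACNB3 (0.74 and 0.93) rose too.

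The other alpha2delta genes were looked at singly, after their values were seen. CACNA2D1, CACNA2D2 and CACNA2D3 were each called higher in bIP and not in N, which does not show that bIP and N differ. CACNA2D2 measured 2.03 and 0.88 on the log2 scale in bIP and N, with edgeR adjusted p-values of 0.000429 and 0.162, and CACNA2D3 measured 1.29 and 0.36, with 0.00383 and 0.513. Between N and bIP the log2 fold changes were -1.15 (SE 0.54) for CACNA2D2 and -0.92 (SE 0.431) for CACNA2D3, neither called (edgeR adjusted p = 0.749 and 0.746), beside -0.93 for CACNA2D1. CACNA2D4 was not called in any of these, with -0.03 (SE 0.752) between N and bIP. Among the pore genes CACNA1I and CACNA1S were not called in bIP or N either. Cajal-Retzius neurons are early-born, reelin-secreting cells of the cortical surface. Their 5 markers summed to 1308 to 3461 CPM in bIP, 198 to 235 in N and at most 101 in radial glia. The sum was thus highest in bIP as CACNA2D1 was, and RELN led it, at 2048 ± 1001 CPM in bIP. TP73, LHX1 and LHX5 also had their highest means in bIP, while CALB2 had a higher mean in N (143 ± 8.43) than in bIP (122 ± 34.9). The part of such cells in the level of CACNA2D1 was not tested.

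**Figure D4:**
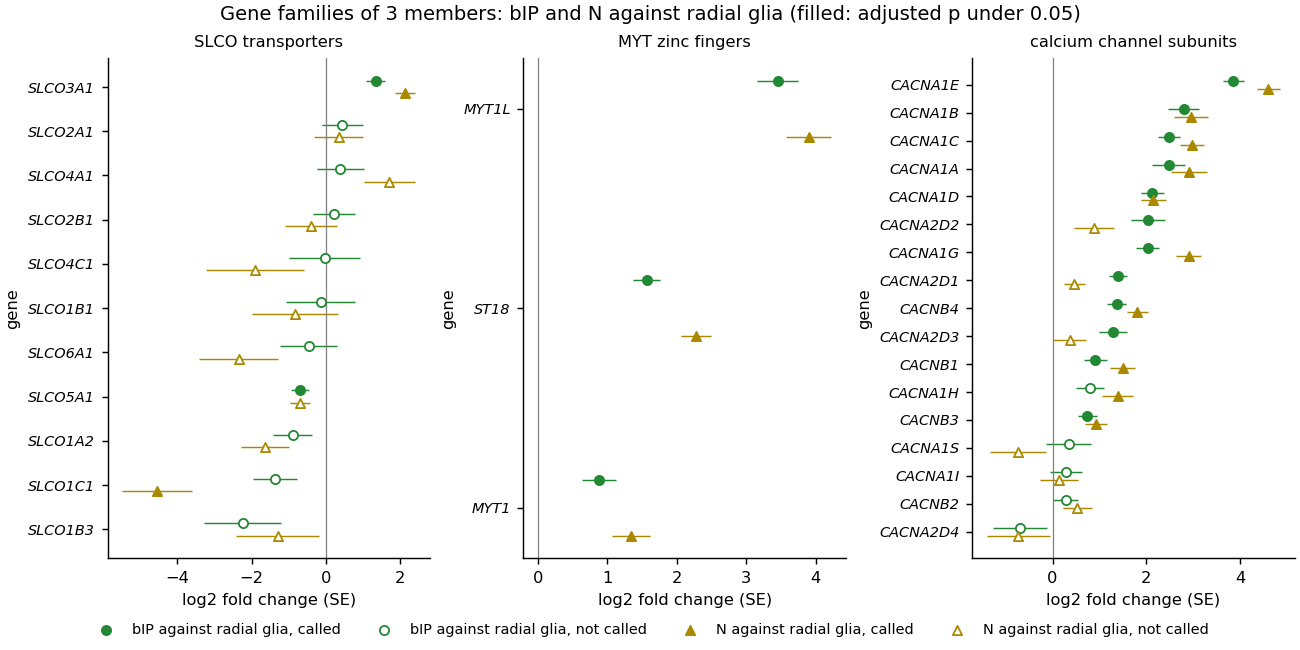
Log2 fold changes with standard errors in bIP (circles) and N (triangles) against radial glia for the tested genes of the SLCO, MYT and calcium channel families; filled symbols have an edgeR adjusted p under 0.05. Among the calcium channel genes CACNA2D1, CACNA2D2 and CACNA2D3 are filled in bIP and open in N.

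Of the 10 other SLCO genes tested, none was called lower in bIP, beside 10.4% of all genes, and all but SLCO3A1 averaged under 8 CPM. SLCO3A1, the gene of another organic anion transporter, was called higher. It measured 43.5 ± 13.005 CPM in aRG, 27.7 ± 9.87 in bRG, 88.0 ± 12.8 in bIP and 152 ± 6.76 in N. It rose by 1.34 in bIP and 2.14 in N against radial glia on the log2 scale (edgeR adjusted p = 0.000811 and 1.95e-05). SLCO1C1, a thyroxine transporter gene, was called lower in N, beside 10.1% of all genes. The 10 others had a median log2 fold change of -0.08 in bIP and -1.06 in N, against -0.07 and -0.06 over all genes.

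The other genes of dynein arm assembly and motile cilia were mixed. Of 23 tested, 2 rose in bIP (ZMYND10 and LRRC56) and 5 fell, beside 10.4% of all genes in each direction. In N none rose and 5 fell, beside 12.4% of all genes higher and 10.1% lower. Some, picked by their values, shared the signs of CFAP298 from aRG to bRG and in N against radial glia. Their log2 fold changes there were 1.09 and -1.83 for CFAP300, 0.74 and -1.61 for CCDC39, and 0.56 and -1.43 for SPAG1. Of these 6 values those of CCDC39 and SPAG1 in N were called (edgeR adjusted p = 0.035 and 0.0178). In bIP they were not all alike: CFAP300 measured -1.88 (called lower), CCDC39 -1.08 and SPAG1 0.02, against -0.13 for CFAP298. The medians of the 23 were 0.02 in bIP and -0.12 in N, near those of all genes. DNAAF3, an assembly factor, fell most, with log2 fold changes of -3.02 in bIP and -3.98 in N (edgeR adjusted p = 3.96e-06 and 3.31e-06). Those with the highest counts, CCDC40, PIH1D1, RUVBL1 and RUVBL2, were not called in either, and in bRG they measured 123 ± 1.49, 110 ± 22.2, 40.1 ± 4.63 and 110 ± 27.4 CPM, against 116 ± 24.0, 130 ± 19.3, 68.5 ± 30.9 and 183 ± 46.9 in aRG. FOXJ1, the master factor of motile cilia, measured 1.13 ± 0.526 CPM in bRG and 3.20 ± 1.99 in aRG. Over 7 markers of multiciliated cells the summed level was 44.4 to 63.6 CPM in bRG and 50.7 to 80.1 in aRG, with CFAP126 at 0 in all libraries. The axonemal dynein gene DNAH9, 1 of the 7, measured 23.9 to 34.8 CPM in bRG and 14.8 to 22.4 in aRG. Every bRG library lay above every aRG library in 1.51% of all genes tested. DNAH9 averaged 35.3 ± 10.1 CPM in bIP. RSPH1 measured 3.57 ± 2.06 CPM in bRG and 2.76 ± 1.36 in aRG. PIFO, TPPP3 and DNAI1 had lower means in bRG (3.01, 2.51 and 17.8 CPM) than in aRG (6.13, 7.02 and 23.6). The part of such cells in the level of CFAP298 was not tested.

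Genes next to the members in the RefSeq gene table of the gorilla assembly NHGRI_mGorGor1-v2.1_pri were read as a local comparison. TCP10L, which adjoins CFAP298, also had its highest level in bRG. It measured 11.4, 12.2, 6.96 and 6.95 CPM in bRG libraries 1 to 4, and 2.35, 4.28, 1.24 and 1.86 in aRG libraries 1 to 4. The means were 9.40 ± 2.84 CPM in bRG, 5.22 ± 1.35 in bIP, 3.78 ± 2.57 in N and 2.43 ± 1.31 in aRG, so that aRG and N stood in the reverse order from CFAP298. bRG library 3, the highest for CFAP298, was among the lower bRG libraries for TCP10L. Transcripts that run from CFAP298 into TCP10L are known in human, so the counts of the 2 genes may share reads. SYNJ1, the neighbour on the opposite side and the gene of a phosphatase of synaptic vesicle recycling, rose in bIP and N against radial glia (log2 fold changes of 1.42 and 1.66, edgeR adjusted p = 0.000301 and 0.000188). It measured 43.5 ± 9.11 CPM in aRG, 59.5 ± 21.8 in bRG, 136 ± 31.6 in bIP and 161 ± 56.5 in N.

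The neighbours of SLCO5A1 and of CACNA2D1 had no such step between aRG and bRG. SULF1, beside SLCO5A1, encodes a heparan sulfate sulfatase and measured 41.1 ± 10.9 CPM in bRG and 44.5 ± 16.4 in aRG. It fell against radial glia, with log2 fold changes of -1.38 in bIP and -2.32 in N (edgeR adjusted p = 0.0182 and 0.0026). PRDM14 on its opposite side was at 3.31 ± 2.44 and 2.36 ± 1.23 CPM. PCLO, beside CACNA2D1, encodes the presynaptic scaffold piccolo and measured 101 ± 47.7 CPM in aRG, 86.8 ± 37.9 in bRG, 610 ± 73.0 in bIP and 838 ± 103 in N. Its mean was highest in N. HGF, a growth factor gene on the opposite side, stayed between 2.60 and 3.69 CPM in the mean of every population.

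The genes with the most similar course over the 13 libraries were found by Pearson's r of log2 CPM among 8835 or 8836 genes that averaged at least 4 on the log2 CPM scale and had a RefSeq symbol. These libraries fall into populations and share depth and scaling, so the values describe these libraries. SLCO5A1 was most like CBFA2T2 (r = 0.892), a transcriptional corepressor, followed by FOXO3 (0.848), AVIL (0.848), CFAP298 (0.842) and TINCR (0.837). CBFA2T2 measured 187 ± 32.9 CPM in bRG and 114 to 124 in the mean of the other populations. FOXO3, a forkhead factor of stress and quiescence, measured 47.1 ± 5.18 CPM in bRG and 31.0 to 33.2 elsewhere. CFAP298 was most like CEBPZOS (0.867), DDX55 (0.859), MED17 (0.856), TINCR (0.85) and SLCO5A1. SLCO5A1 and CFAP298 were thus each among the 5 genes most like the other, and the rise from aRG to bRG on which both were picked is part of that likeness.

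ST18 was most like PRUNE2 (r = 0.949), BEST1 (0.946), RIMS3 (0.944), PDZD2 (0.944) and CPEB4 (0.944). RIMS3 encodes a protein of the presynaptic active zone and CPEB4 an RNA-binding regulator of translation. CPEB4 measured 84.5 ± 15.0 CPM in aRG, 121 ± 24.2 in bRG, 292 ± 37.1 in bIP and 403 ± 21.6 in N. BEST1, a chloride channel gene, had a larger step after the radial glia, from 20.8 ± 3.12 CPM in bRG to 95.2 ± 22.0 in bIP and 147 ± 2.63 in N. CACNA2D1 was most like TMEM81 (0.93), CBLB (0.918), CNTNAP5 (0.89), NEBL (0.885) and NCOA3 (0.881). CNTNAP5, a cell adhesion gene of the neurexin superfamily, measured 89.5 ± 28.9 CPM in bIP and 7.92 to 12.6 in the means of the other populations. CBLB, a ubiquitin ligase gene, was less selective, at 268 ± 39.4 CPM in bIP and 218 ± 28.8 in N.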

How the data were processed

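Values are raw read counts per gene in a pair of tables deposited by the authors, on hg38 and on gorGor6 (a build stated only in that table's title). Per the submitters' processing notes, which name them with no role or version, the tools and builds include STAR and hg38. Not given in the sources used here: annotation, counter and strand, which leaves genes with paralogs or overlapping neighbours uncertain. Per the labels' protocols, libraries were Smart-seq2 with 12 to 17 PCR cycles. A gorGor6 row without a gene name (0.00351% to 0.00768% of counts) was left out. In each table a neuron column bears a number no neuron label has, and this column entered as an unnumbered neuron library.

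All 13 libraries entered 1 fit in edgeR 4.0.16 (R 4.3.3; TMM, filterByExpr with a minimum count of 10, quasi-likelihood F-test), with Benjamini-Hochberg adjustment over all 16804 genes. Each standard error is the log2 fold change over the square root of F; log2 CPM used a prior count of 2. Members and lists were chosen with earlier results of these data known. Named genes were the members, the up to 4 most abundant relatives of each family list, the 5 most similar genes, the nearest neighbours in RefSeq (16328 of 18137 symbols matched; ST18 gave no neighbours), genes at the threshold and defining markers; others are named as called members of a list. No pair of libraries of a population agreed within sampling noise (chi-square per degree of freedom 11.1 to 98.0). DESeq2 1.42.0 and other settings served as alternatives, and each test was first checked on simulated counts. No genome was used here, so positions are not given.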

Additional observations from a re-analysis of the deposited data

Results flagged for a closer look

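Of 16 sets of 4 libraries examined for a value far from the others (4 genes, aRG and bRG, 2 tables), 2 held one, where chance gives about 1 in 20. ST18 measured 67.3 CPM in bRG library 2 and 56.2 to 57.3 in the other bRG libraries of the hg38 table, and its log2 fold change from aRG to bRG was 0.95 without that library. CACNA2D1 measured 205 CPM in bRG library 3 and 140 to 144 in the others, and its log2 fold change without that library was 0.76. In the gorGor6 table neither value stood as far out, at 41.0 CPM for ST18 (others 34.0 to 37.9) and 126 CPM for CACNA2D1 (others 72.1 to 85.7).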

How the results depend on the processing

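ST18 and CACNA2D1 kept their direction and their call in bIP against radial glia under all 19 alternatives, and ST18 did so in N. Without 1 library each, the log2 fold change lay between 1.30 and 1.75 for ST18 and between 1.30 and 1.54 for CACNA2D1 in bIP, and between 2.01 and 2.50 for ST18 in N. The lower values of SLCO5A1 and CFAP298 hold the bRG level that selected them, so they are again described without a test. SLCO5A1 in bIP measured -0.94 in the gorGor6 table and -0.70 in a fit of only the populations compared. In the 13 removals of 1 library it lay between -0.85 and -0.60. SLCO5A1 in N measured -0.75 with DESeq2 and lay between -0.79 and -0.61 in the removals. CACNA2D1 in N lay between 0.21 and 0.68. CFAP298 in N measured -0.83 in the gorGor6 table and -0.89 with the replicate block, and lay between -1.15 and -0.78 in the removals. Between N and bIP, CACNA2D1 was called by DESeq2 (-0.98), and SLCO5A1, near 0, turned negative with DESeq2 (-0.0495), its size factors in edgeR (-0.0495), the gorGor6 table (-0.0675), the replicate block (-0.302) and only these populations (-0.0899), with -0.10 to 0.15 in the removals. From aRG to bRG, ST18 measured 1.18 in the libraries numbered 1 and 2 only, and CFAP298 1.60 in those numbered 3 and 4 only. The cause of these changes was not tested.

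Counts of genes called between N and bIP were 169 with DESeq2, 48 with only these populations and 1 with the replicate block, and 0 to 70 in the removals, with 0 without the unnumbered neuron library, 2 without neuron library 1 and 70 without bRG library 3. In N against radial glia the count was 2018 with the replicate block and 2046 (without the unnumbered neuron library; 2230 without neuron library 1) to 5074 in the removals. For bRG against aRG DESeq2 called 374, and the removals gave 131 (without aRG library 4) to 240. Libraries that share a number did not deviate together throughout (r of -0.01 to 0.39, over 0.1 in 7 of 13 pairs), and 6 of 12 correlated best with their own number, so the numbers were not taken to pair the samples. The block changed no call of ST18 or CACNA2D1.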

Other observations

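The ratio of CFAP298 counts in the gorGor6 table to those in the hg38 table differed with the replicate number in radial glia: it was 121% to 140% in the 4 aRG and bRG libraries numbered 1 and 2 and 154% to 165% in the 4 numbered 3 and 4. The antisense row CACNA2D1-AS1 of the gorGor6 table measured 1.69 to 2.97 CPM in the radial glia libraries numbered 1 and 2 and 3.16 to 8.41 in those numbered 3 and 4. It reached 12.7 CPM in bIP library 3 and 15.9 in the unnumbered neuron library, against 2.58 to 5.88 in the other bIP and neuron libraries. Neither split was tested, and both were noticed after the values were seen.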
